A study of Mus musculus with 2 samples.

Results

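Foxp3-positive regulatory T cells (Tregs) were examined among the CD45+ cells sorted from the injured thalamus, where they numbered 181 of 26145 cells that passed the quality limits (0.692%). A Treg was taken as a cell with at least 2 UMIs (unique molecular identifiers, each standing for 1 captured mRNA molecule) of *Cd3d*, *Cd3e* and *Cd3g* together, at least 1 *Foxp3* UMI, and none of *Trdc*, *Cd8a*, *Cd8b1* or *Csf1r*. The limits kept cells with 200 to 7500 detected genes and no more than 5% of UMIs from mitochondrial genes. The control Ab library held 115 of the 181 cells and the anti-CD9 Ab library 66. The rule reads *Foxp3* in the same cells that are described, so their *Foxp3* level is not a result.

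The single-cell RNA-seq data held 2 libraries, 1 per antibody. Both were made from C57B6/J mice, stated as 12 weeks old, with cortical ablation injury (CAI), a surgical lesion of the cortex followed by delayed inflammation in the thalamus on the injured side. Control Ab was normal rat IgG and anti-CD9 Ab was the rat monoclonal clone KMC8 against the tetraspanin CD9. Either antibody was delivered into the thalamus through an implanted cannula at 1.0 µg/µl between day 7 and day 19 after injury, and live CD45+ cells were sorted on day 21. All mice thus carried an injury, a cannula and a rat antibody, and no uninjured or untreated group was used here. The methods describe pools of 4 mice per thalamus library without repeating the number for the antibody groups. With 1 library per antibody no test between antibodies was possible, and antibody, pool of mice and library cannot be told apart. All intervals below are 95% intervals that cover counting error only.

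Tregs are CD4 T cells kept in their state by the transcription factor Foxp3. They restrain other lymphocytes through CTLA-4, by consuming IL-2 through a high-affinity receptor that contains CD25 (*Il2ra*), and by releasing IL-10 and TGF-β. In injured tissues, brain included, a population of Tregs is known to express the IL-33 receptor ST2 (*Il1rl1*) and the growth factor amphiregulin (*Areg*) and to promote repair.

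The libraries differed before any gene was compared. T cells, defined by the *Cd3* minimum alone, numbered 6351 of 11690 kept cells under control Ab (54.3%) but 3325 of 14455 under anti-CD9 Ab. Unless named otherwise, the first of 2 values is that of control Ab and the second that of anti-CD9 Ab. Tregs had a median of 1885 UMIs per cell (760 to 10419) and 2666 UMIs per cell (770 to 11517), and summed to 275786 and 213970 UMIs. The libraries shared 48 barcodes among kept cells, 1 of them on a control Ab Treg and none on an anti-CD9 Ab Treg. Levels are given as CPM, the UMIs of a gene summed over the cells of a gate per 1000000 UMIs of those cells.

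The marker genes matched the label in both libraries. *Ctla4*, the inhibitory receptor that competes with CD28, was at 1545 and 1841 CPM in Tregs against 514 and 811 CPM in CD4 T cells without *Foxp3*. *Ikzf2*, which encodes the transcription factor Helios, was at 1987 and 3085 CPM in Tregs and at 309 and 238 CPM in *Foxp3*-negative CD4 cells. These comparison cells met the same gates with 0 *Foxp3* UMIs and at least 1 *Cd4* UMI (718 and 511 cells). *Il2ra* was at 308 and 566 CPM in Tregs against 81.0 and 101 CPM. *Tnfrsf4*, the costimulatory receptor OX40, was at 656 and 967 CPM against 202 and 244 CPM. In every one of these 4 genes the Treg level was above that of the *Foxp3*-negative CD4 cells in both libraries. CD8 T cells carried 134 and 169 CPM of *Ctla4* and 9.01 and 6.62 CPM of *Tnfrsf4*. *Ikzf2* was also high in *Trdc*-positive T cells (1017 and 769 CPM), so that this gene alone did not set Tregs apart from γδ T cells.

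**Figure D1:**
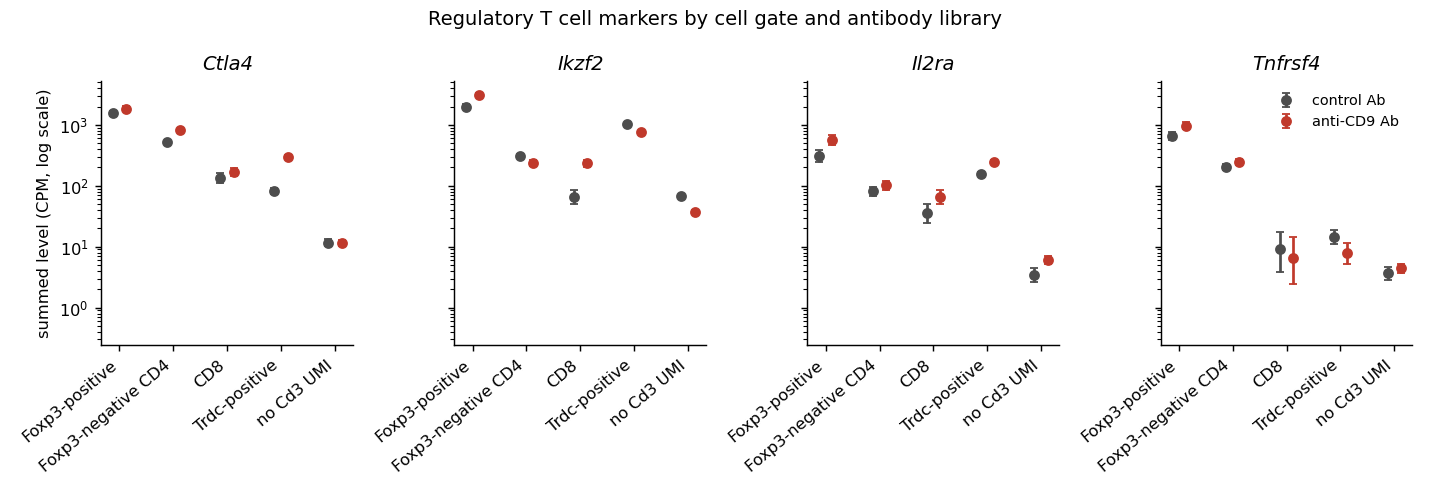
Summed level of *Ctla4*, *Ikzf2*, *Il2ra* and *Tnfrsf4* (CPM, log axis) in 5 gates of cells, with control Ab in grey and anti-CD9 Ab in red, 1 library each; bars are Poisson 95% intervals and are hidden by the point where narrow. Foxp3-positive cells hold the highest level of every gene in each library, and *Ikzf2* is also high in Trdc-positive cells.

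Most Tregs carried several of the markers at once. Of the 4 genes other than *Foxp3*, at least 2 were detected in 82.6% and 92.4% of Tregs, against 28.3% and 38.7% of *Foxp3*-negative CD4 cells. All 4 were detected in 20 of 115 and 24 of 66 Tregs, and 2 control Ab Tregs and no anti-CD9 Ab Treg had none. With cells thinned to 1000 UMIs, at least 2 were detected in 71.7% and 75.4% of Tregs against 15.1% and 16.9% of *Foxp3*-negative CD4 cells. All 4 were then found in 6 of 106 (5.66%) and 5 of 65 Tregs (7.69%), and none in 6 and 3. *Ctla4* was seen in 88.7% and 92.4% of Tregs, *Ikzf2* in 73.9% and 90.9%, *Tnfrsf4* in 50.4% and 71.2% and *Il2ra* in 47 of 115 and 33 of 66 Tregs. Cells with no *Cd3* UMI, which should lack *Ctla4*, had a UMI of it in 2.44% and 2.26% of cells at medians of 2293 and 1518 UMIs, and of *Ikzf2* in 17.2% and 6.85%, of *Tnfrsf4* in 1.04% and 0.969% and of *Il2ra* in 0.868% and 1.10%. Thinning each cell to 1000 UMIs left *Ctla4* in 75.5% and 66.2% of Tregs and in 32.8% and 44.6% of *Foxp3*-negative CD4 cells. At that depth *Ikzf2* was in 63.2% and 78.5% of Tregs against 97 of 674 and 55 of 502 *Foxp3*-negative CD4 cells. The thinned values leave out 9 control Ab Tregs and 1 anti-CD9 Ab Treg under 1000 UMIs.

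A single *Foxp3* UMI was the usual basis of membership. It was 1 UMI in 89 and 42 Tregs, 2 UMIs in 21 and 15, and no more than 5 in any cell. Just inside the limit, cells with 1 *Foxp3* UMI had 1443 and 1799 CPM of *Ctla4* and 1926 and 2615 CPM of *Ikzf2*. Just outside it, T cells with the same gates, 0 *Foxp3* UMIs and no condition on *Cd4* (2548 and 1566 cells) had 471 and 680 CPM of *Ctla4* and 386 and 486 CPM of *Ikzf2*. Cells with 2 or more *Foxp3* UMIs were at 1840 and 1894 CPM of *Ctla4* and 2165 and 3673 CPM of *Ikzf2*. Cells with 1 *Foxp3* UMI were thus above the *Foxp3*-negative cells in both libraries. From 1 to 2 or more *Foxp3* UMIs, *Ctla4* and *Ikzf2* were higher in both libraries, whereas *Tnfrsf4* and *Il2ra* went different ways. *Tnfrsf4* was at 692 and 552 CPM with control Ab but at 773 and 1210.3 CPM with anti-CD9 Ab, and *Il2ra* at 332 and 241 CPM against 446 and 716 CPM. The median depths were 1845 and 2423 UMIs per cell with control Ab and 2048.5 and 3909.5 with anti-CD9 Ab.

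*Foxp3* was rare in cells that should not express it. A *Foxp3* UMI was present in 8 of 4721 cells without *Cd3* UMIs (0.169%, 0.0732 to 0.334%) and in 12 of 10221 such cells (0.117%, 0.0607 to 0.205%). Among *Trdc*-positive T cells the share was 0.373% and 0.456%. CD8 T cells had it in 7 of 400 cells (1.75%) and 0 of 222 cells, and a count of 0 allows up to 3 cells with a UMI, or 1.35%. *Cd4* mRNA was poorly captured in the same cells. It was detected in 40 of 115 (34.8%) and 23 of 66 (34.8%) Tregs, and in 28.2% and 32.6% of the T cells that met the same gates without *Foxp3*. The T cell receptor gene *Trac* was found in 77.4% and 78.8% of Tregs.

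With the gates as defined, the fraction of Tregs among CD4 T cells did not differ beyond counting error. It was lower beyond counting error with anti-CD9 Ab when cells were thinned to 2000 UMIs. The Treg fraction of all CD45+ cells was lower with anti-CD9 Ab. Tregs were 115 of 2663 T cells without *Trdc*, *Cd8a*, *Cd8b1* and *Csf1r* UMIs under control Ab (4.32%) and 66 of 1632 under anti-CD9 Ab (4.04%), which differ by −0.274 percentage points (−1.47 to 1.01). In these pools 1830 and 1055 cells had neither a *Foxp3* nor a *Cd4* UMI, so they can hold T cells other than CD4 T cells. With a *Cd4* UMI required of the *Foxp3*-negative cells but not of Tregs, which raises the share, Tregs were 115 of 833 (13.8%) and 66 of 577 (11.4%), which differ by −2.37 points (−5.80 to 1.22). Among all kept cells, Tregs were 0.984% (0.813 to 1.18%) and 0.457% (0.353 to 0.581%), which differ by −0.527 percentage points (−0.746 to −0.322). Of all T cells they were 1.81% and 1.98%, which differ by 0.174 points (−0.379 to 0.785). The lower fraction of all cells went along with the lower fraction of T cells as a whole. The difference was 0.00974 points (−0.527 to 0.585) when cells with UMIs of other lineages were left out. That filter takes out 88.8% and 90.3% of cells without *Cd3* UMIs, and 60.0% and 48.5% of Tregs. It thus removes most of the non-T cells from the denominator, and no conclusion on the share of all cells is drawn from this value. The difference in the CD4 gate changed direction with the rule, from −6.46 percentage points (−12.2 to −0.823) with cells thinned to 2000 UMIs to 1.04 (−0.915 to 3.23) with at least 2 *Foxp3* UMIs required.

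Compared with *Foxp3*-negative CD4 cells of the same library, Tregs carried more mRNA of the Treg identity genes and of most suppressive effectors. Of 3295 genes with at least 100 UMIs over both gates in each library, 26 (0.789%) were at least 2-fold higher in Tregs in both libraries and 43 (1.31%) at least 2-fold lower. At any size, 1048 of the 3295 were higher in both libraries and 1003 lower in both. Since the gates were set by *Foxp3* in these very cells, the differences are descriptions. The 43 include *Cd4*, which the comparison cells had to carry and Tregs did not. Ranked by the smaller of both ratios, with *Foxp3* itself not ranked, *Ikzf2* came first (log2 ratios 2.69 and 3.69). It was followed by *Tnfrsf9*, the costimulatory receptor 4-1BB. *Tnfrsf9* was at 268 CPM in Tregs against 42.3 CPM in the control Ab library and at 664 against 87.2 CPM in the other (log2 ratios 2.67, 2.18 to 3.16, and 2.93, 2.58 to 3.28).

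Among the other genes of Treg identity, *Izumo1r*, the folate receptor FR4, was at 395 and 318 CPM in Tregs against 113 and 54.8 CPM (1.81 and 2.53). *Itgae*, the αE integrin CD103 that binds E-cadherin, was at 391.6 and 248 CPM against 100.1 and 44.3 CPM (1.97 and 2.48). *Tnfrsf18*, which encodes GITR, gave ratios of 1.36 and 1.61. All 13 measured genes of the Treg identity list other than *Foxp3* were higher in Tregs in both libraries and 10 at least 2-fold, with list medians of 1.59 and 1.86. The medians of all 3295 genes were 0.02 and −0.01. The list was drawn up with these genes in view, so its direction is not independent evidence.

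Of 13 measured suppressive effectors, 12 were higher in Tregs in both libraries and 6 at least 2-fold (medians 1.20 and 1.18). *Il10*, the anti-inflammatory cytokine, was at 181 and 93.5 CPM in Tregs against 26.8 and 10.6 CPM (2.76 and 3.14). It was detected in 22 of 115 Tregs (19.1%) and 10 of 66 (15.2%), against 0.318% and 0.890% of cells without *Cd3*. *Itgb8*, part of the integrin that activates latent TGF-β, had ratios of 3.17 and 4.27. *Gzmb* (granzyme B) was at 236 and 336.5 CPM against 43.5 and 75.3 CPM, and *Nt5e*, the ectoenzyme CD73 that makes adenosine, had ratios of 1.31 and 1.29. The 1 suppressive gene that was not higher in both was *Lgals1* (galectin-1), at −0.06 and 0.35.

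Genes of tissue effector Tregs were present but less uniformly raised. Of 25 measured, 18 were higher in both libraries, 6 of them at least 2-fold, and 3 were lower in both (medians 0.66 and 0.46). *Il1rl1* was at 39.9 and 140.2 CPM in Tregs against 8.94 and 15.2 CPM, and *Klrg1*, a receptor of differentiated effector cells, had ratios of 2.74 and 3.41. *Areg* was at 94.3 and 79.5 CPM against 5.36 and 25.1 CPM. A few cells carried these mRNAs: the 26 and 17 *Areg* UMIs came from 13 and 6 Tregs. *Cxcr6*, the receptor for the chemokine CXCL16, and *Id2*, a transcriptional regulator of effector lymphocytes, were instead lower in Tregs in both libraries (*Cxcr6* −0.99 and −2.75, *Id2* −0.995 and −1.61).

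Most effector cytokine and chemokine genes were lower in Tregs. Of 11 measured, 10 were lower in both libraries and 7 at least 2-fold (medians −1.04 and −1.87). *Cd40lg*, the ligand through which CD4 cells help B cells, was at 25.4 and 4.67 CPM in Tregs against 135 and 90.5 CPM (−2.41 and −4.28). *Ifng* was at 54.4 and 60.8 CPM against 122 and 398 CPM, and *Ltb* (lymphotoxin β) was the exception among the 11, with ratios of 0.51 and 0.04. No Treg in either library had a UMI of *Il2*, *Il4*, *Il5*, *Il13* or *Csf2*. *Tcf7*, the transcription factor TCF-1 of resting and memory T cells, had 5 UMIs (−1.91) and 0 UMIs in Tregs, the latter a ratio of no more than −2.66 with 3 UMIs in place of 0. *Bhlhe40*, a transcription factor needed for GM-CSF production, had ratios of −1.61 and −2.12, and *Bcl2*, an inhibitor of apoptosis, −1.68 and −1.57.

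**Figure D2:**
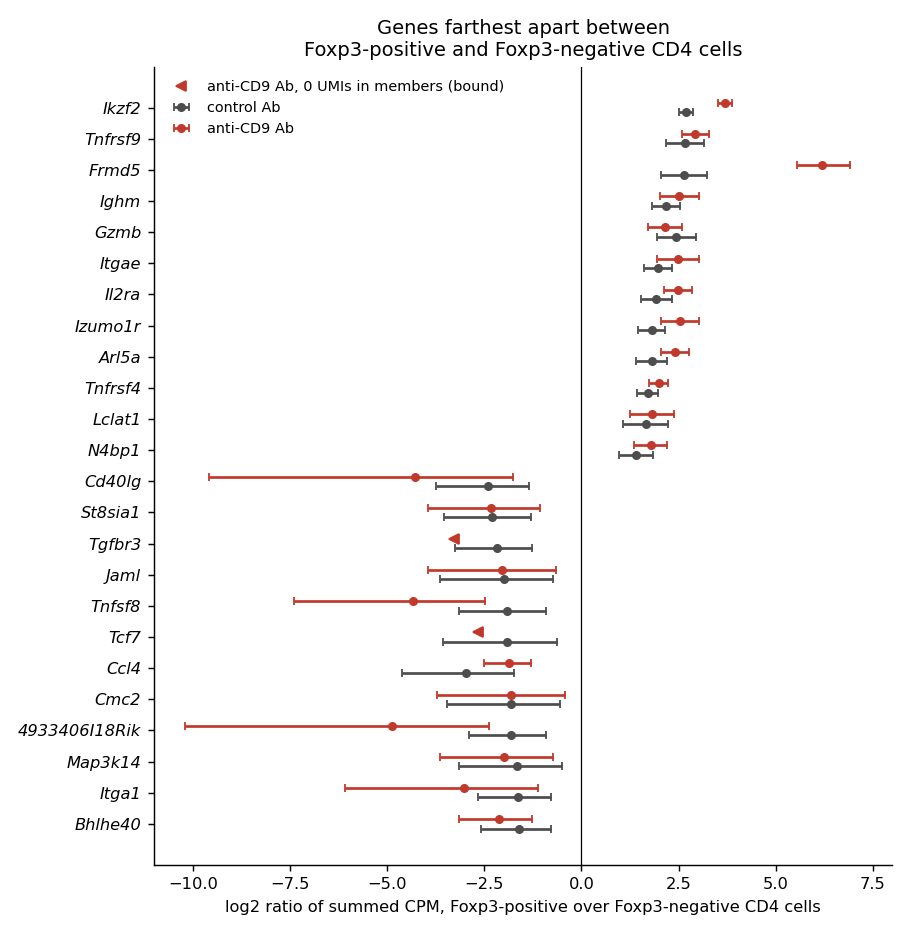
Log2 ratio of summed CPM of Foxp3-positive over Foxp3-negative CD4 cells, with control Ab in grey and anti-CD9 Ab in red. Shown are the 12 highest and 12 lowest genes among those with at least 100 UMIs over both gates in each library, with *Foxp3* not ranked. Bars are 95% counting intervals and triangles mark bounds where Foxp3-positive cells had 0 UMIs with anti-CD9 Ab. The 12 upper genes lie right of 0 in both libraries and the 12 lower genes left of 0, the latter with wide intervals because they rest on few UMIs.

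The 26 genes also held some outside the Treg lists. *Frmd5*, which encodes a FERM domain protein, was at 185 and 1014 CPM against 29.8 and 13.9 CPM (2.63 and 6.19). In the anti-CD9 Ab library 2 Tregs held 75 and 65 of its 217 UMIs, and 14 Tregs had any. *Ighm*, the heavy chain gene of IgM, was at 395 and 299 CPM in Tregs against 87.6 and 52.2 CPM (2.17 and 2.52), and was detected in 45 and 30 Tregs. Cells without *Cd3* carried 1021 and 862 CPM of *Ighm*, and their part in the Treg value was not tested.

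Genes of Treg subsets were detected in part of the Tregs of each library. A UMI of *Il1rl1*, *Areg*, *Klrg1* or *Ccr8*, genes of tissue effector Tregs, was found in 31 of 115 Tregs (27.0%, 19.1 to 36.0%) and 22 of 66 Tregs (33.3%, 22.2 to 46.0%), against 9.89% and 9.98% of *Foxp3*-negative CD4 cells and 3.26% and 0.695% of cells without *Cd3*. At 1000 UMIs per cell the shares were 19.8% and 24.6% of Tregs against 4.90% and 4.58% of *Foxp3*-negative CD4 cells. *Tbx21* or *Cxcr3*, genes of type 1 cells, were found in 48.7% and 47.0% of Tregs and in 45.7% and 36.8% of *Foxp3*-negative CD4 cells, and at 1000 UMIs per cell in 24.5% and 24.6% against 28.6% and 18.3%. In cells without *Cd3* they were found in 4.51% and 2.98%. *Gata3*, which encodes a transcription factor of type 2 cells, was found in 17.4% and 27.3% of Tregs, in 13.2% and 14.5% of *Foxp3*-negative CD4 cells and in 1.31% and 0.489% of cells without *Cd3*, and at 1000 UMIs per cell in 10.4% and 15.4% of Tregs against 7.86% and 5.58% of *Foxp3*-negative CD4 cells. At this depth, partial detection does not show that Tregs differed among themselves.

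Between the antibodies, the 4 markers used above to check the label were higher in Tregs with anti-CD9 Ab, while *Izumo1r* (log2 ratio of the second library over the first −0.31) and *Itgae* (−0.66) were lower. *Foxp3* itself was at 537 and 481 CPM. Of the 4, *Il2ra* differed most (308 and 566 CPM, log2 ratio 0.88, 0.46 to 1.29), followed by *Ikzf2* (0.63, 0.47 to 0.80), *Tnfrsf4* (0.56, 0.27 to 0.86) and *Ctla4* (0.25, 0.05 to 0.45). The *Ctla4* ratio turned to −0.22 (−0.53 to 0.09) when cells with UMIs of other lineages were left out. In *Foxp3*-negative CD4 cells, *Ctla4* (0.66), *Il2ra* (0.32) and *Tnfrsf4* (0.28) were higher as well, and *Ikzf2* was lower (309 and 238 CPM, −0.37). *Cd9*, the target of the antibody, was low in Tregs at 163 and 98.1 CPM (−0.73, −1.55 to 0.04), in 29 and 12 cells. Cells without *Cd3* had 3291 and 940.4 CPM of *Cd9*, and their part in the Treg values was not tested. Of 13 measured tetraspanins and their partners, 9 were lower with anti-CD9 Ab (median −0.48), beside 388 of the 860 genes that reached 100 UMIs in Tregs. In *Foxp3*-negative CD4 cells 12 of 17 measured were lower (median −0.08). In Tregs the tetraspanin median was 0.71 when cells with UMIs of other lineages were left out.

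Of 860 genes that reached 100 UMIs in Tregs, both libraries added, 19 (2.21%) were at least 2-fold higher with anti-CD9 Ab and 18 (2.09%) at least 2-fold lower, around a median of 0.03 with 472 of the 860 above 0. In cells thinned to 1000 UMIs 125 genes reached this minimum, of which 0 were 2-fold higher and 2 lower. Several of the lower genes are those of other cells. *Jchain*, *Igha* and *Igkc*, immunoglobulin genes of plasma cells, were lowest (−6.61, −5.94 and −5.15), and 1 control Ab Treg carried 3533 of the 3695 *Igkc* UMIs. Without that cell *Igkc* was at 610.5 CPM with control Ab. The *Igha* ratio was 0.37 without it and the anti-CD9 Ab Treg with the most B cell UMIs, and among cells with 2 or more *Foxp3* UMIs the *Igkc* ratio was 0.17. Cells without *Cd3* had 30924 and 25590 CPM of *Igkc*. *Spp1* (osteopontin) was at 968 and 103 CPM in Tregs and at 24866 and 2278 CPM in cells without *Cd3*, and *C1qa*, a complement gene of microglia, at 381 and 112 CPM against 7618 and 2777 CPM. *Spp1* and *C1qa* were thus lower in the second library in both gates.

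Genes at least 2 times the level of cells without *Cd3* in each library and higher with anti-CD9 Ab included *Lgals1* (290.1 and 888 CPM, 1.61, 1.23 to 2.01), *Tnfrsf9* (268 and 664 CPM, 1.31, 0.89 to 1.73), *Malt1*, the protease of the NF-κB pathway downstream of antigen receptors (250.2 and 589 CPM, 1.23), and *Satb1*, a chromatin organizer of T cells (283 and 617 CPM, 1.13). *Lgals1*, *Satb1* and *Tnfrsf9* were also higher in *Foxp3*-negative CD4 cells (1.20, 1.16 and 1.04), whereas *Malt1* differed little there (0.22). *Morrbid*, a long non-coding RNA that represses the pro-apoptotic gene *Bcl2l11* in immune cells, was at 170.4 and 463 CPM (1.44, and 1.14 in *Foxp3*-negative CD4 cells). *Frmd5* had the highest ratio in Tregs (2.46, 2.01 to 2.92) and −1.10 in *Foxp3*-negative CD4 cells. As described above, 2 Tregs supplied most of it, and with control Ab its Treg level (185 CPM) was near that of cells without *Cd3* (148 CPM).

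Genes at least 2 times the level of cells without *Cd3* in each library and lower with anti-CD9 Ab included receptors and signaling molecules of T cells. *Cxcr6* was at 417 and 112 CPM in Tregs (−1.89, −2.59 to −1.25) and at 829 and 754 CPM in *Foxp3*-negative CD4 cells (−0.14). It was detected in 44 of 115 Tregs (38.3%) and 15 of 66 (22.7%), and at 1000 UMIs per cell in 26.4% and 7.69%. *Themis*, a protein needed for T cell receptor signaling in selection, was at 587 and 187 CPM in Tregs (−1.65) and at 1191 and 1245 CPM in *Foxp3*-negative CD4 cells (0.06), but its Treg ratio was −0.14 with cells thinned to 1000 UMIs. *Inpp4b*, a lipid phosphatase, was at 3680.4 and 1598 CPM (−1.20, −1.38 to −1.03, and −0.58 in *Foxp3*-negative CD4 cells). *Cd226*, an activating receptor that competes with the inhibitory receptor TIGIT, was at 410 and 201 CPM (−1.03).

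**Figure D3:**
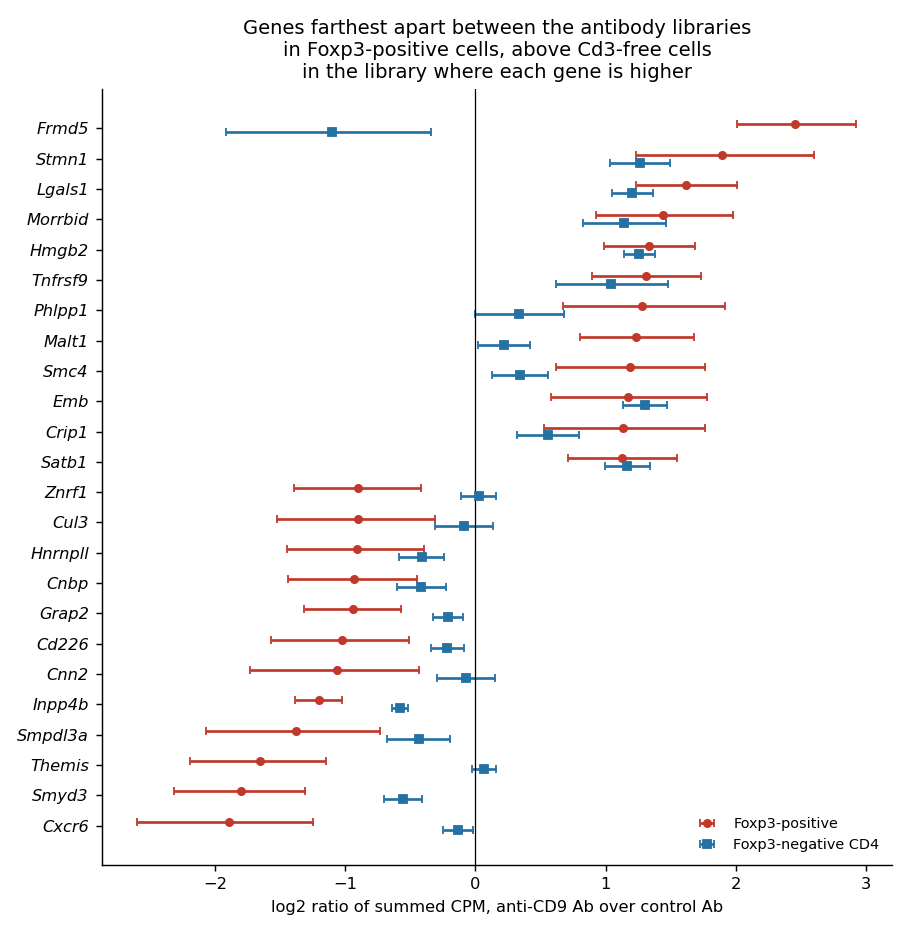
Log2 of anti-CD9 Ab CPM divided by control Ab CPM in Foxp3-positive cells (red) and Foxp3-negative CD4 cells (blue), for the 12 highest and 12 lowest genes whose level in Foxp3-positive cells was at least 2 times that in Cd3-free cells of the library where the gene was higher, so that a difference can itself decide which genes are shown; bars are 95% counting intervals. For *Cxcr6*, *Themis* and *Frmd5* the blue squares lie away from the red points, and for *Satb1* and *Hmgb2* they overlap.

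Most measured genes of resting T cells were higher with anti-CD9 Ab in Tregs and in *Foxp3*-negative CD4 cells. *Il7r*, the IL-7 receptor, had 145 and 201 UMIs in Tregs (526 and 939 CPM), and *S1pr1*, the receptor that guides exit from tissue, had 5 and 17 UMIs (18.1 and 79.5 CPM). Of 9 measured genes of resting T cells, 8 were higher with anti-CD9 Ab in Tregs, 4 of them at least 2-fold (median 0.84), beside 472 of all 860 genes higher and 2.21% at least 2-fold. In *Foxp3*-negative CD4 cells, where 14 genes of the list were measured, 12 were higher (median 1.02).

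T cell receptor signaling genes as a list were mostly lower with anti-CD9 Ab in Tregs. The list includes *Cd3d*, *Cd3e* and *Cd3g*, which the rule used. Without them, a choice made after seeing the data, 18 of 21 measured genes were lower and 3 higher, beside 388 of all 860 genes lower. The median was −0.37 against 0.03 over all 860 genes. With them, 20 of 24 were lower (median −0.41), and with cells thinned to 1000 UMIs the median of the 19 genes then measured was −0.14. Without the *Cd3* genes, 14 of 22 measured were lower in *Foxp3*-negative CD4 cells (median −0.04), 15 of 21 in CD8 T cells (−0.17) and 14 of 21 in *Trdc*-positive T cells (−0.28). The medians of the 860 genes in these gates were 0.04, −0.0046 and 0.03. The summed level of the list without these genes was 10127 and 7623 CPM in Tregs and 11316 and 11057 CPM in *Foxp3*-negative CD4 cells. *Lat* and *Lck*, the adaptor and the kinase that start the receptor signal, were at −0.85 and −0.79, *Cd5* and *Cd6*, co-receptors, at −0.72 and −0.87, and *Skap1*, the most abundant, at −0.24. A minimum of 2 *Cd3* UMIs is a smaller share of a deeper cell, and the part of this in the *Cd3* values was not tested.

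Cell cycle genes were higher with anti-CD9 Ab, and the difference lay in few Tregs. Of 18 measured, 17 were higher and 12 at least 2-fold (median 1.70), beside 472 of all 860 genes higher and 2.21% at least 2-fold. The 860 genes each had at least 100 UMIs and list genes at least 20, so these shares are not matched for UMIs. *Cks1b*, a subunit of cyclin-dependent kinases, had the highest ratio (14.5 and 135.5 CPM), and *Mcm6*, a subunit of the replicative helicase, was the only lower one (102 and 84.1 CPM). The proliferation marker *Mki67* was at 21.8 and 107 CPM, in 3 and 8 Tregs. The 30 genes together came to 733 UMIs (2658 CPM) and 1235 UMIs (5772 CPM). With anti-CD9 Ab 5 Tregs held 197, 165, 162, 127 and 104 of these UMIs, or 61.1%. With control Ab 1 Treg held 176 (24.0%) and the next 20. In the median Treg there were 4 and 5.5 UMIs of the list.

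The cells with at least 1% of their UMIs in cell cycle genes numbered 2 of 115 Tregs (1.74%, 0.211 to 6.14%) and 7 of 66 Tregs (10.6%, 4.37 to 20.6%). The same limit gave 1.95% and 8.02% of *Foxp3*-negative CD4 cells. The share was thus higher with anti-CD9 Ab in both gates, and the list was also higher in CD8 T cells (median 2.44) and *Trdc*-positive T cells (2.25). Without the 5 Tregs per library with the most cell cycle UMIs, a choice made after seeing the data, 7 genes were measured, of which 4 were higher (median 0.49). The removed cells were chosen by the UMIs being compared, which favours a smaller difference, so no conclusion is drawn from this value.

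**Figure D4:**
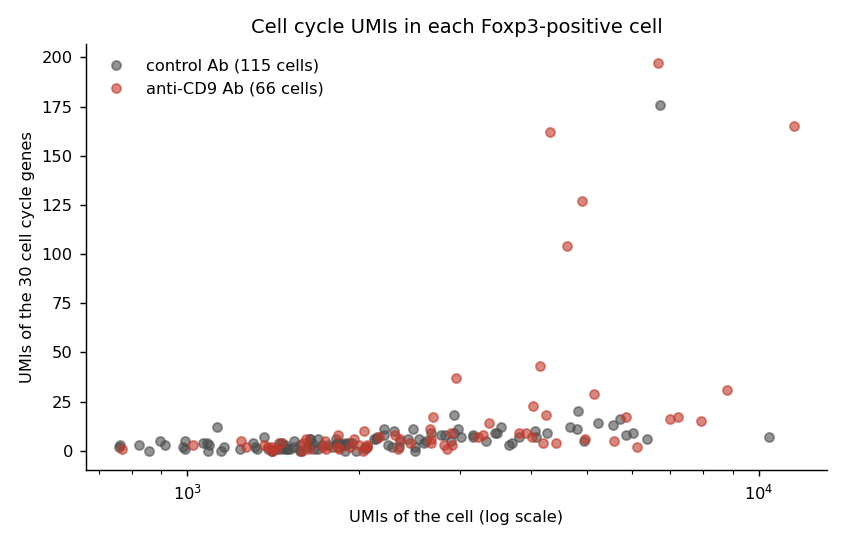
UMIs of the 30 cell cycle genes in each Foxp3-positive cell against the total UMIs of that cell (log axis), with 115 control Ab cells in grey and 66 anti-CD9 Ab cells in red. The 5 anti-CD9 Ab cells and the 1 control Ab cell above 100 UMIs stand apart from the others.

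The other Treg gene groups had medians between 0.07 and 0.56, beside 472 of 860 genes higher overall. The Treg identity list without *Foxp3*, which the rule used, had 9 genes higher and 4 lower of 13 (median 0.56, against 0.14 over 14 genes in *Foxp3*-negative CD4 cells, and 0.41 in Tregs with *Foxp3* counted), with *Swap70* the highest (32.6 and 84.1 CPM) and *Itgae* the lowest (−0.66, but 0.047 among cells with 2 or more *Foxp3* UMIs). *Swap70* rested on 9 and 18 UMIs, and cells without *Cd3* had 69.9 and 77.2 CPM of it. The summed level of the 13 genes and those too low to be measured was 7089 and 9239.6 CPM. Suppressive effectors had 7 genes higher and 6 lower (median 0.07), with *Penk*, the precursor of enkephalin peptides, at 50.8 and 215 CPM, and *Il10* at 181 and 93.5 CPM (−0.96, −1.78 to −0.18). The *Penk* UMIs came from 6 and 8 Tregs, and 2 of the latter held 16 and 13 of 46. Tissue effector genes had 15 higher and 10 lower (median 0.08), with *Il1rl1* at 1.81. Checkpoint and costimulatory receptors had 12 higher and 5 lower (median 0.24). Outside the Treg lists, T helper transcription factors had 14 of 21 higher (median 0.12), IL-2 and common gamma chain signaling genes 8 of 13 (0.13) and immediate early and stress genes 11 of 16 (0.18).

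Among 20 measured chemokine and homing receptors, 8 were higher and 12 lower with anti-CD9 Ab (median −0.19), against 472 higher and 388 lower of all 860 genes (median 0.03). *Cxcr4* (25.4 and 98.1 CPM, 1.95), the receptor for CXCL12, was higher. *Ccr9*, a receptor of gut-homing cells, was lower (102 and 37.4 CPM, −1.44). Of effector cytokines only 6 were measured (median −0.23). *Il17a* had 39 UMIs in 8 control Ab Tregs and 1 UMI in 1 anti-CD9 Ab Treg (141 and 4.67 CPM), and 2 of the 8 held 61.5% of the 39. Its level was 280.0 and 233 CPM in *Foxp3*-negative CD4 cells, and 280.4 and 1657 CPM in *Trdc*-positive T cells. The 13 *Ifng* UMIs with anti-CD9 Ab all came from 1 Treg.

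**Figure D5:**
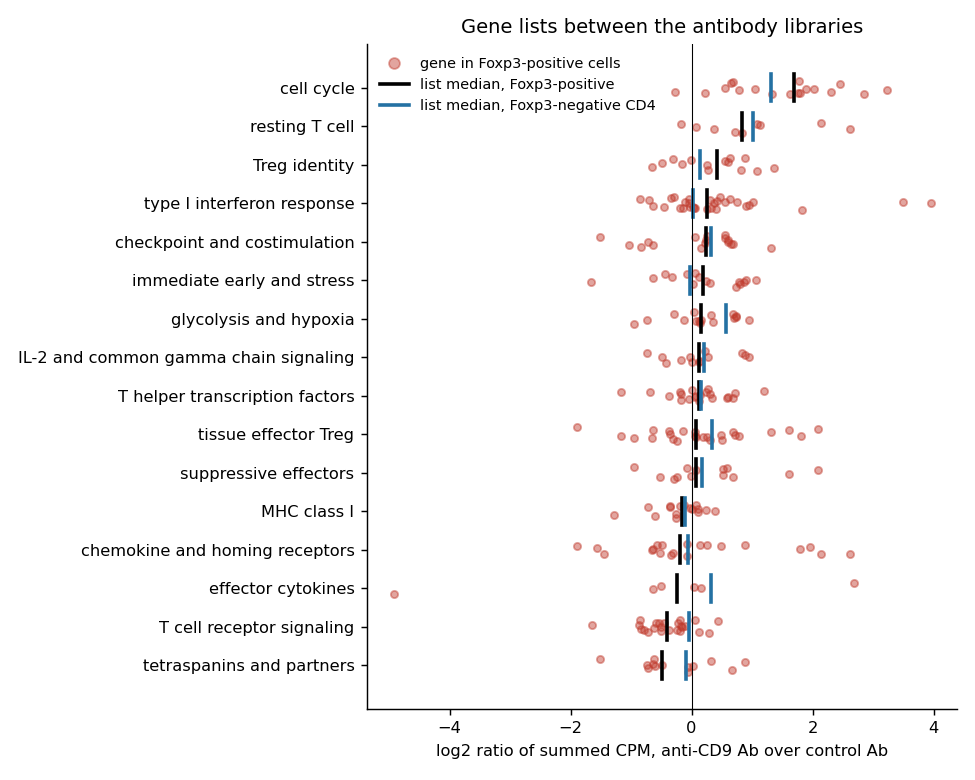
Log2 of anti-CD9 Ab CPM divided by control Ab CPM in 16 gene lists; each red point is a gene in Foxp3-positive cells with at least 20 UMIs, the black bar is the list median in these cells and the blue bar the list median in Foxp3-negative CD4 cells. The cell cycle list has the highest medians in both gates, and the T cell receptor signaling list has a black bar at −0.41, *Cd3* genes included, and a blue bar near 0.

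Markers of other cell types were present in Tregs and differed between the libraries. Their part in the values above was not tested. The 16 microglial genes summed to 3263 and 1949 CPM in Tregs, led by *Ctss* (740 and 593 CPM). All 8 measured were lower with anti-CD9 Ab (median −1.41), 5 of them at least 2-fold, beside 388 of all 860 genes lower and 2.09% at least 2-fold. Here too the list genes had at least 20 UMIs and the 860 genes at least 100, so these shares are not matched for UMIs. In cells without *Cd3* the 16 microglial genes summed to 39690 and 15602 CPM. The defining genes were at or near 0 in Tregs: *Csf1r* by the rule, *Tmem119* with 0 and 2 UMIs and *P2ry12* with 4 and 1. Of 6 measured macrophage and monocyte genes, 4 were higher with anti-CD9 Ab (median 0.56), whereas *Spp1* and *Apoe* (787 and 402 CPM) were lower and the list's sum was 2513 and 1930 CPM. *Saa3*, an acute phase gene, was detected in 1 and 29 Tregs (3.63 and 210.3 CPM), and *Lyz2*, which encodes lysozyme, in 21 and 33 Tregs (90.7 and 262 CPM). *S100a8* and *S100a9* had 0 and 1 UMIs with control Ab and 17 and 15 with anti-CD9 Ab, *Retnlg* none in either, and the neutrophil list summed to 87.0 and 519 CPM.

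The plasma cell list summed to 16422 and 869 CPM, and its B cell counterpart (112 and 224 CPM) rested on 1 anti-CD9 Ab Treg with 44 of 48 UMIs, a cell of 8785 UMIs that its doublet score marked. MHC class II genes were carried by few cells too, and 8 Tregs per library marked by their doublet scores held 65.3% and 66.8% of the *Cd74* UMIs. *Cd74*, the invariant chain, was at 794 and 1351 CPM in Tregs and at 965 and 443 CPM in *Foxp3*-negative CD4 cells, and single Tregs held 51.3% and 31.5% of the UMIs of the dendritic cell list. The natural killer cell genes *Ncr1* and *Klrb1c* were at 0 in both libraries. Leaving out the marked cells, or cells with 2 or more UMIs of other lineages (69 and 32 Tregs), kept *Cxcr6*, *Themis* and *Tnfrsf9* on the same side of 0. Without the cells of other lineages, however, the ratios of *Ctla4*, *Gzmb* and *Crip1* and the tetraspanin median changed sign. Fewer genes then differed 2-fold between the libraries, as listed under processing below.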

How the data were processed

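The deposited matrices hold raw UMI counts per gene and cell barcode, made by the authors with Cell Ranger. The submitters' notes name Cell Ranger 8.0.0 and GRCm39, while the methods of the study name another version and build. No gene position was used. The libraries held 12245 and 15173 barcodes with 38042608 and 40825201 UMIs, of which 11690 and 14455 passed the limits given above. UMIs were summed per gate and scaled to CPM. Shares have Clopper-Pearson intervals, differences of shares Newcombe intervals, levels Poisson intervals, and ratios exact binomial intervals conditional on the total. No test between antibodies could be made. A gene counted as measured in a list at 20 UMIs over both libraries, and a value against 0 UMIs used 3 UMIs as a bound. Doublets were scored per library with Scrublet (0.8% marked per 1000 barcodes) and kept.

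Members and gene lists were chosen with earlier results of these data known. Named genes were the markers, *Cd4* and *Cd9*, the 12 highest and 12 lowest genes of each comparison, with and without the background of *Cd3*-free cells, and up to 4 genes per list. Other genes were named after their values were seen, and some genes are not reported here. Alternatives were other gates, thinning, minimums and folds; leaving out the Tregs with the most plasma cell, B cell or cell cycle UMIs was added after seeing the data. Python 3.11.15, NumPy 2.4.6, SciPy 1.17.1, pandas 2.3.3, scanpy 1.11.5 and Matplotlib 3.10.9 were used, and the scripts were tested on simulated data.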

Additional observations from a re-analysis of the deposited data

Results flagged for a closer look

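The 5 genes below had log2 ratios (anti-CD9 Ab to control Ab) of opposite sign in Tregs and in *Foxp3*-negative CD4 cells, and the difference between the gates was not tested. *Ikzf2* was at 0.63 in Tregs and −0.37 in *Foxp3*-negative CD4 cells, and *Frmd5* at 2.46 and −1.10. The MHC class II genes *H2-Ab1*, *H2-Eb1* and *Cd74* were at 1.13, 0.91 and 0.77 in Tregs and at −0.94, −0.83 and −1.12 in *Foxp3*-negative CD4 cells. These ratios and that of *Frmd5* rest on few cells of the Treg gate, and single ones held 63.6% and 37.5% of the *H2-Ab1* UMIs, 56.7% and 36.9% of *H2-Eb1*, 47.9% and 29.4% of *Cd74* and 27.5% and 34.6% of *Frmd5* with control Ab and anti-CD9 Ab. The top cell of each MHC class II gene was marked by its doublet score in both libraries. The 8 marked cells per library held 80.3% and 80.4% of the *H2-Ab1* UMIs, 80.4% and 73.0% of *H2-Eb1* and 65.3% and 66.8% of *Cd74*, against 15.7% and 0.922% of *Frmd5*. Without marked cells in either gate, *H2-Ab1* was at 1.27 (0.22 to 2.38) in Tregs and −1.31 in *Foxp3*-negative CD4 cells, *H2-Eb1* at 1.51 and −0.94, *Cd74* at 0.85 and −1.39, *Ikzf2* at 0.64 and −0.28 and *Frmd5* at 2.83 and −0.69 (−1.58 to 0.16). The marked anti-CD9 Ab Tregs held 90 of 112 *H2-Ab1*, 103 of 141 *H2-Eb1* and 193 of 289 *Cd74* UMIs. Among the unmarked ones a single Treg held 12, 19 and 46 UMIs of these genes. The MHC class II ratios without marked cells thus again rest largely on 1 cell. Whether the marked cells are doublets was not tested.

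A *Foxp3* UMI was also present in 58 control Ab cells and 42 anti-CD9 Ab cells outside the Treg gate. Of these, 20 and 8 had a *Csf1r* UMI, at medians of 6586 and 4817 UMIs per cell, 14 and 3 had a *Cd8a* or *Cd8b1* UMI, 9 and 5 a *Trdc* UMI, 7 and 14 a single *Cd3* UMI and 8 and 12 none.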

How the results depend on the processing

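No paired analysis was possible because each antibody had 1 library. The Treg share of the CD4 gate differed by −6.46 percentage points with cells thinned to 2000 UMIs. That of kept cells differed by −0.0564 with 2 or more *Foxp3* UMIs, −0.294 with cells thinned to 1000 UMIs and 0.00974 without cells holding UMIs of other lineages. The last of these settings also leaves out most cells without *Cd3* UMIs, so its denominator is no longer that of all cells. The Treg identity median over *Foxp3*-negative CD4 cells (anti-CD9 Ab) was 2.31 with 2 or more *Foxp3* UMIs, 1.48 at no more than 2% mitochondrial UMIs, 1.23 thinned to 1000 UMIs and 1.49 without the *Cd4* condition. The cell cycle median was 0.49 without 5 Tregs per library, and the tetraspanin median 0.71 without other-lineage cells. Genes higher and lower with anti-CD9 Ab numbered 85 and 59 at 1.5-fold, 72 and 51 at 50 UMIs, 6 and 7 at 200 UMIs, 11 and 2 with 2 or more *Foxp3* UMIs, 0 and 2 thinned, and 4 and 4 without other-lineage cells. Without the 5 cell cycle Tregs per library 11 were lower. Except at 1.5-fold, the number of genes that reached the minimum changed with the setting, so these counts cannot be compared as shares. Opposite directions were seen for *Crip1* (−0.95 thinned, −0.24 without other-lineage cells), *Gzmb* (−0.055 with 2 or more *Foxp3* UMIs, −0.16 thinned, −1.05 without other-lineage cells), *Stmn1* (−1.53) and *Smc4* (−0.21) thinned, *Ctla4* (−0.22) without other-lineage cells, *Dnajc7* (0.032), *Igkc* (0.17) and *Itgae* (0.047) with 2 or more *Foxp3* UMIs, and *Igha* (0.37) without 1 Treg per library. The causes were not tested. Of 516 recomputed values for 61 named genes, 446 lay within the counting interval. The 181 Tregs limit every value, since many genes rest on fewer than 100 UMIs and on 1 pool of mice per antibody.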

Other observations

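Interferon response genes, which cells express on sensing type I interferon, had 19 of 31 measured members higher and 12 lower with anti-CD9 Ab in Tregs (median log2 ratio 0.25, beside 472 of all 860 genes higher, and 0.02 in *Foxp3*-negative CD4 cells). The list summed to 8855 and 10516 CPM in Tregs and to 3001 and 11003 CPM in cells without *Cd3*. MHC class I genes had 6 higher and 10 lower (median −0.16, and −0.11 in *Foxp3*-negative CD4 cells). Glycolysis and hypoxia genes had 12 of 16 higher (median 0.15, and 0.56 in *Foxp3*-negative CD4 cells).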
